A study of Homo sapiens with 4 samples.

Results

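Broad open regions are stretches of accessible chromatin that run over 2000 bp or more once the peaks of all libraries are joined. Peaks of 4 single-nucleus ATAC libraries on chromosomes 1 to 22 and X were merged where they overlapped by at least 1 bp, and those holding a peak of every library are called consensus regions. Of 50771 consensus regions (from 128195 merged regions), 54 had a merged width of 2000 bp or more. They are compared with the 40934 consensus regions of 800 to 1000 bp, called narrow regions here. Widths ran from 2000 to 2777 bp with a median of 2095.5 bp, against medians of 929 bp for narrow regions and 936 bp for all consensus regions. The members were chosen by their merged width, so width is a description. Just above the limit lay regions of 2000 bp nearest to SPATA2, 2008 bp nearest to HAS2 and 2012 bp at SIN3A, and just below it regions of 1998 bp at STK39, 1997 bp nearest to RND3 and 1990 bp within CHLSN and CYP2W1.

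The nuclei came from transplanted mice carrying Panc1, an established line of human pancreatic ductal adenocarcinoma. Carrier mice (12 and 31) received the vehicle of the compound, and Inflachromene mice (11 and 35) received inflachromene, a compound whose known targets are the high mobility group proteins HMGB1 and HMGB2. Each library is 1 mouse, so n = 2 per group; the sources used here do not give the dose, duration, site of the graft or age of the mice. Panc1 is 1 established line, and copy number was not analysed here.

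In ATAC-seq a transposase cuts DNA where nucleosomes and other proteins leave it free, and its cuts are counted. Most open regions are about as wide as a single regulatory element with its nearest nucleosomes. Wider ones are typical of active promoters rich in CpG dinucleotides, where the nucleosome-depleted start site and accessible DNA downstream of it lie side by side, and of neighbouring elements that stand close together. A peak is a stretch that a program called as enriched in 1 library, so a merged region can be wider than any peak inside it.

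The libraries held 27088391 to 39947056 counts in 2039 to 5186 barcodes, of which 939 to 2070 had at least 2000 counts and are called deep barcodes. Of 12859 distinct barcodes, 1617 were listed in 2 or more libraries, 1209 of them in both Carrier 12 and Inflachromene 11. Counted once for each pair of libraries that share it, a shared barcode occurred 1802 times. In 1670 of these cases it was deep in 1 library of the pair only and in 28 in both. Shared barcodes carried 58.5% and 61.8% of the counts of Carrier 12 and Carrier 31 but 3.26% and 1.34% of those of Inflachromene 11 and Inflachromene 35, so the comparison of the groups was repeated without them. That repeat called 0 members, and the 10 regions named from the comparison kept their direction; values that moved by over 1.5 times are given with each region. Of the 7 carcinoma markers, 6 had a consensus region, as did 4 of 6 fibroblast, 4 of 4 myeloid and 1 of 4 T and NK markers, and no endothelial, B, acinar, endocrine or leukocyte marker. Of all 19974 protein-coding genes, 13366 had a consensus region, so having one does not show that a cell type was present. No marker of any of these cell types had a broad region.

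The upstream sequences of 5 members are shown because these start sites lie in 3 of the 4 broad regions with the highest level (EGR1, SIN3A and EIF4A1), in a broad region with starts in both directions (ELF1 with WBP4) and in the member with a single long peak in every library (MIDN). Each is the 250 bases before the gene start in RefSeq's promoter table for GRCh38.p14, written in the direction of transcription. Capitals mark matches to the motifs searched.
EGR1 (chr5:138465229-138465478, plus strand): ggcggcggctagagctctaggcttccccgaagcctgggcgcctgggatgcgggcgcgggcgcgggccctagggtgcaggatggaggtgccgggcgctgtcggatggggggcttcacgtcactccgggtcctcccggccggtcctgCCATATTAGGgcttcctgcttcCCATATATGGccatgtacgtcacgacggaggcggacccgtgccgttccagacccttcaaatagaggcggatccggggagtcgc
SIN3A (chr15:75451691-75451940, minus strand): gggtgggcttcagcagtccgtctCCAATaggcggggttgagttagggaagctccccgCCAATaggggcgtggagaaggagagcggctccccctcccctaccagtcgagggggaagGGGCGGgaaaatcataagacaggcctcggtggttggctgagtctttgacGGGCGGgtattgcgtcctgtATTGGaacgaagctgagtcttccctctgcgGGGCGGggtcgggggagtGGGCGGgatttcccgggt
EIF4A1 (chr17:7572575-7572824, plus strand): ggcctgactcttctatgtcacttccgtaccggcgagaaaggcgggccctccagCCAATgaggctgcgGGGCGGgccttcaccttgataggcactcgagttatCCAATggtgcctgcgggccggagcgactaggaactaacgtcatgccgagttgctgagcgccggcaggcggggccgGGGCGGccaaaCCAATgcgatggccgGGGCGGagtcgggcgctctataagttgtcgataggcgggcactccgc
ELF1 (chr13:41061387-41061636, minus strand): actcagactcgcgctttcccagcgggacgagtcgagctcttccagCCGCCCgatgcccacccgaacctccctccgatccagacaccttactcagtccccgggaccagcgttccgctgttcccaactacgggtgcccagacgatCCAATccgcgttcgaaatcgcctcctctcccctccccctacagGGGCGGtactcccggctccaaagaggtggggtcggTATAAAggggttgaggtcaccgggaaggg
MIDN (chr19:1248333-1248582, plus strand): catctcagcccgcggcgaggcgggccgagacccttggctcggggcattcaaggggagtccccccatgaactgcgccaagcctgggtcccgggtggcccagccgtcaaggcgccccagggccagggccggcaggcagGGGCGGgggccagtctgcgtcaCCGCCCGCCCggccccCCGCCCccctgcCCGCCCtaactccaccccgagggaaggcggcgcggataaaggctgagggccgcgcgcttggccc

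EGR1 encodes a zinc finger transcription factor that growth factors switch on within minutes, and its 250 bases held 2 CArG boxes, the motif bound by serum response factor. They begin 105 and 83 bases before the start. SIN3A, the scaffold of a histone deacetylase corepressor, had 4 GC boxes (GGGCGG) and 3 CCAAT boxes on either strand. EIF4A1, the RNA helicase of translation initiation, had 3 of each. ELF1, an ETS family transcription factor, had 2 GC boxes, 1 CCAAT box and a TATAAA match that begins 29 bases before its start. MIDN, whose product midnolin brings short-lived nuclear proteins to the proteasome, had 5 GC boxes at this start, 2 of which overlap each other. A second listed MIDN start lies further on within the same region.

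All windows of 300 bases (250 before to 50 after a listed start) that fell wholly inside a broad region were then examined. There were 38 such windows, from 32 genes. Their median GC content was 72.8%, against 65.3% in the 10763 windows inside narrow regions and 58.7% in all 34789 windows of the table. The median ratio of observed to expected CpG was 0.850 in broad and 0.847 in narrow regions, against 0.578 in all windows. GC content was highest at LINC02939 (85.7%), ZNF362 (83.3%) and ALDH1A3, which makes retinoic acid (81.7%), and the ELF1 window had 63.0%. At the low end, DGLUCY, a mitochondrial D-glutamate cyclase gene, had 52.3% and 57.0% at its 2 listed starts, with observed over expected CpG of 0.147 and 0.288.

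GC boxes on either strand were found in 34 of the 38 windows (89.5%), against 71.9% in narrow regions and 44.9% in all windows. CCAAT was present in 42.1%, 37.1% and 34.6% in the same order, and TATAAA in 5.26%, 4.69% and 11.6%. The ETS motif CCGGAAG went the other way, with 2 windows (5.26%) against 21.6% in narrow regions and 10.2% in all. TGACTCA, the AP-1 motif, was found in 1 window (2.63%; narrow 4.08%, all 4.93%) and the CArG box in 1, that of EGR1 (2.63%; narrow 0.994%, all 1.30%). The CRE motif TGACGTCA and the NRF1 motif were in none of the 38 windows, where they occurred in 3.62% and 2.71% of windows in narrow regions. The CArG box was added to the search after the EGR1 sequence had been read, and several windows belong to 1 gene or overlap, so these shares describe the windows and were not tested.

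Most of the 54 regions lay at the start or end of a gene. A listed start of a protein-coding gene was within 1000 bp of 22 (40.7%), against 20.5% of narrow regions; these shares were not tested. A further 8 of the 54 members (14.8%) lay at an outer end of a protein-coding gene with no listed start (narrow 4.24%). These were MTUS1, XPO7, TNFRSF10A and CHD7 on chromosome 8, and PTPRJ, ADCY9, NFAT5 and CYP4F12. Counting any start or end of any gene, 36 members (66.7%) qualified, against 35.8% of narrow and 37.3% of all consensus regions. Among regions of 1500 bp or more it was 58.9%. Distance was measured from the edges of a region, so a wider region searches more sequence. How far this raised the shares of broad regions was not tested. Inside protein-coding genes lay 10 members (18.5%; narrow 32.9%) and outside genes 4 (7.41%; narrow 24.2%). Exons and introns were not analysed here. Chromosomes 8 and 16 each held 6 members (11.1%), where they held 3.72% and 3.64% of all consensus regions, and chromosomes 10 and 18 held none. CRIP2 and the region shared by CRIP1 and TEDC1, on chromosome 14, were the closest pair, 6818 bp apart.

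Of 640 genes in 20 pathway lists and 9 marker lists, 518 had a consensus region within 1000 bp of a start or end of the gene, and 2 had a broad one. EGR1, of the immediate early list, and EIF4A1, of the MYC target and ribosome biogenesis list, were those 2. Over all protein-coding genes 13366 of 19974 had a consensus region and 39 a broad one. All 79 genes of cytosolic ribosomal proteins were in the gene table, and 78 had a consensus region, none of them broad.

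Few of the 54 were a single long peak. The libraries had only 4, 2, 1 and 5 peaks of 2000 bp or more. The order here and throughout is Carrier 12, Carrier 31, Inflachromene 11 and Inflachromene 35. These numbers rank as the total counts of the libraries do (33336531, 29295799, 27088391 and 39947056), and a tie to depth was not tested. The median longest peak of a library within a member was 911 to 974 bp. In 15 members every library had 2 peaks, in 38 some libraries had 1 and others 2, and MIDN alone had 1 peak in every library. No library had more than 2 peaks in a member. By comparison, 99.97% of narrow regions had 1 peak in all 4 libraries. Own peaks covered a median of 80.8%, 80.8%, 80.3% and 82.6% of a member's merged width, and less than 50% in 8, 11, 10 and 8 members. Where a library had 2 peaks, the gap between them had a median of 247.5, 218, 209 and 144 bp and ran from 2 to 991 bp. The name broad open region therefore holds for the union of the libraries and, for most members, not for the peaks of 1 library.

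**Figure D1:**
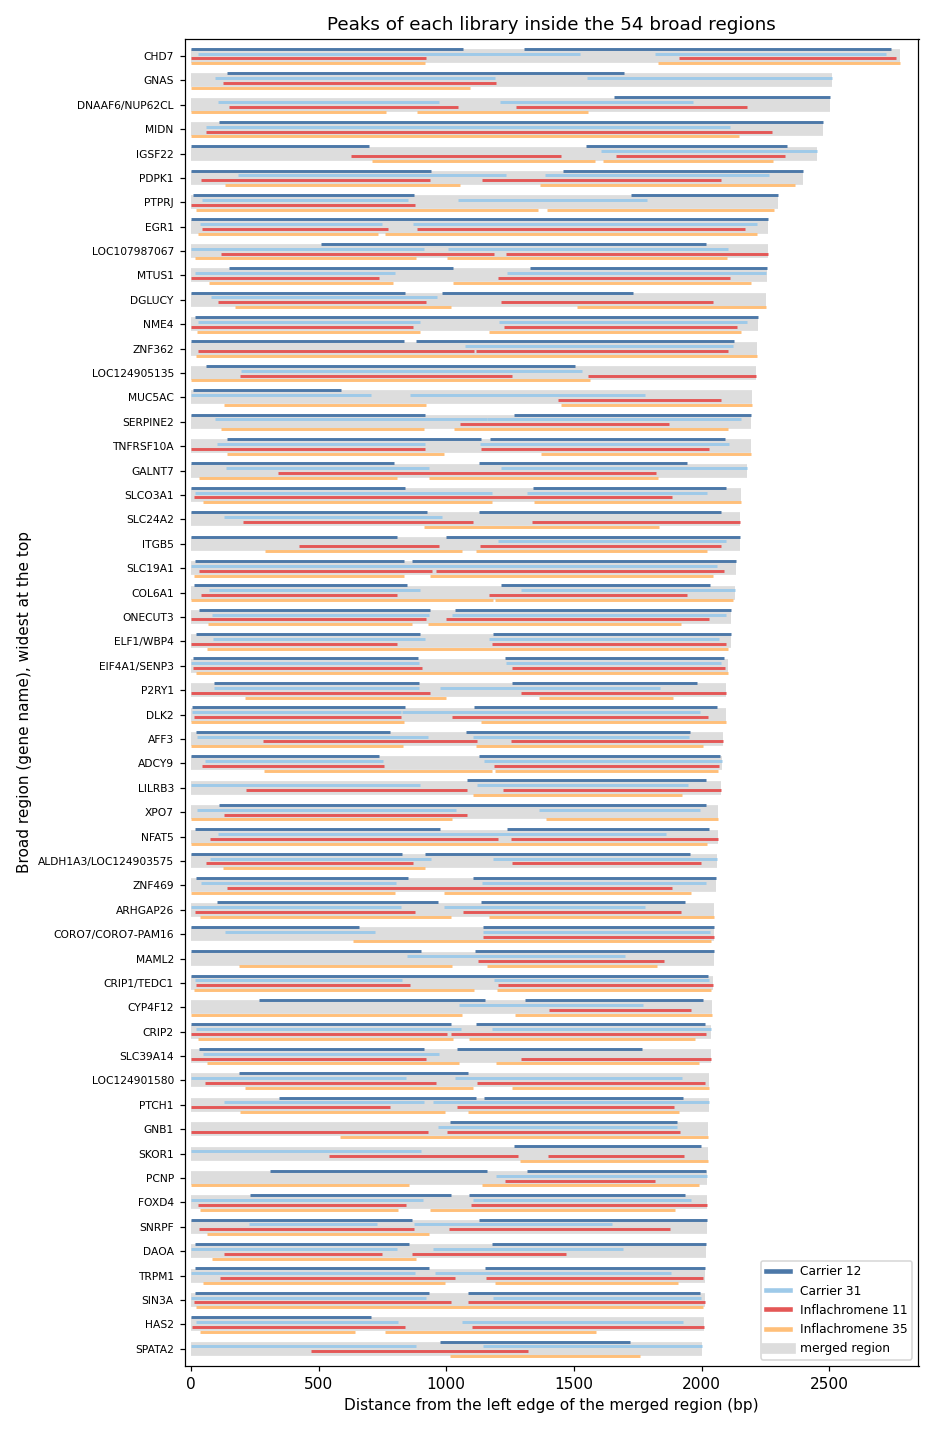
Each row is 1 of the 54 broad regions, drawn to scale in bp from its left edge (grey bar, widest at the top), with the peaks of Carrier 12, Carrier 31, Inflachromene 11 and Inflachromene 35 as coloured lines. MIDN has 1 long line in all 4 libraries, 15 rows have 2 lines in every library, and in 38 rows the number differs between libraries.

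In 9 members at least 1 library had a single peak of 2000 bp or more. MIDN (chromosome 19, 1247993 to 1250467, GRCh38) had peaks of 2366, 2052, 2217 and 2148 bp. EGR1 (chromosome 5, 138463803 to 138466061) was 1 peak of 2259 bp in Carrier 12 and 2 peaks in the other libraries. The regions of NME4, a mitochondrial nucleoside diphosphate kinase, and of CRIP1 with TEDC1 were also single in Carrier 12, and that of SLC19A1, the reduced folate carrier, in Carrier 31. Only in Inflachromene 35 was there such a peak at ZNF362, ELF1 with WBP4, NFAT5 (the transcription factor of the osmotic stress response) and EIF4A1 with SENP3. That library also had the most counts. The NFAT5 region also contains the hairpin of MIR1538. Of these 9, 7 lay at a listed protein-coding start, against 15 of the other 45.

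The widest member, at CHD7 (chromosome 8, 60678132 to 60680908, 2777 bp), a chromatin remodeller gene, had 2 peaks in every library. Its left peak held 72.7%, 82.6%, 80.9% and 81.9% of the region's counts. GNAS followed with 2513 bp, the complex locus of the stimulatory G protein alpha subunit, then DNAAF6 with NUP62CL (2502 bp), MIDN (2475 bp) and IGSF22 (2453 bp). The region of 2398 bp nearest to PDPK1, which encodes the kinase that activates AKT, lay 6318 bp from that gene in a stretch with near-identical copies. LILRB3 and FOXD4 likewise have close relatives in the genome, so the assignment of reads to these 3 regions is uncertain. It was not measured here, for these or for any other member. PTPRJ, a receptor tyrosine phosphatase (2301 bp), a region 51884 bp from LOC107987067 (2259 bp), MTUS1 (2258 bp) and DGLUCY (2253 bp) completed the widest members besides EGR1 and NME4 (2220 bp).

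Among the 15 members with 2 peaks in every library, the same side held more counts in all libraries in 11. Across libraries the left peak's share moved by a median of 9.92 percentage points. It moved least in the region 6147 bp from COL6A1 (2.73 points, 54.8% to 57.6%) and most at MTUS1 (25.1 points, 16.2% to 41.4%). At ADCY9, an adenylyl cyclase gene, the right peak was the larger in all 4, and the left held 20.4%, 19.2%, 22.1% and 28.9%. AFF3, ARHGAP26, DLK2 and the region near PDPK1 were the 4 without a constant side.

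The position of the gene start inside the region was examined for the 18 members with listed starts of exactly 1 protein-coding gene. They reached a median of 752.5 bp upstream and 1304 bp downstream of the most upstream start, and 14 of 18 (77.8%) reached further downstream. Reach runs to the edges of the merged region, and the peaks of a single library can stop short of them. At ITGB5, for example, Carrier 31 had 1 peak of 892 bp in a region of 2149 bp. Narrow regions with 1 such gene (6572) reached 513 bp upstream and 405 bp downstream, with 29.9% further downstream. With a single listed start, 9 of 13 broad regions (69.2%) and 25.3% of narrow regions did so. ITGB5, an integrin beta subunit gene, reached 283 bp upstream and 1865 bp downstream, MIDN 590 and 1884 bp, and PTCH1, the hedgehog receptor gene, 410 and 1618 bp. The 4 exceptions were EGR1 (1676 bp upstream, 582 bp downstream), SERPINE2 (1672 and 522 bp), ZNF362 (1336 and 879 bp) and LILRB3 (1074 and 1003 bp).

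**Figure D2:**
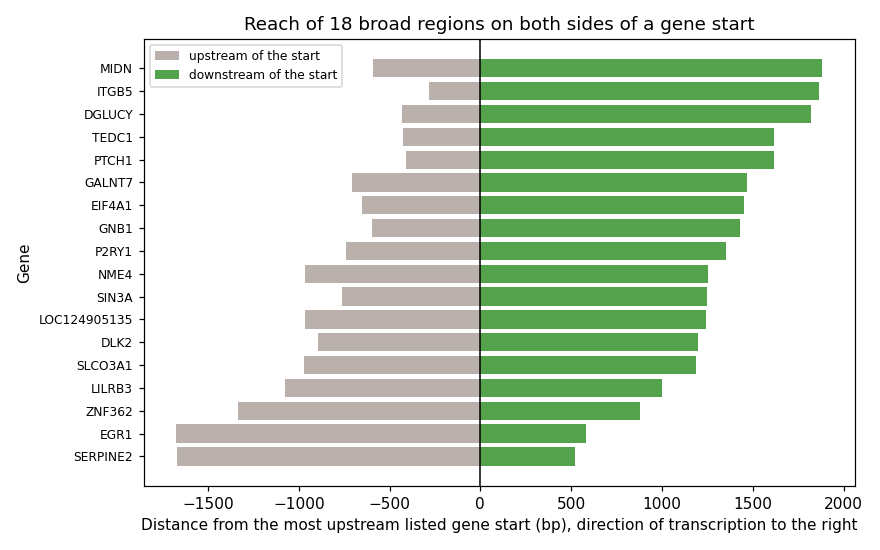
Bars give the reach of 18 broad regions upstream (grey) and downstream (green) of the most upstream listed start, in bp, with transcription to the right. In 14 of 18 the green bar is the longer; EGR1, SERPINE2, ZNF362 and LILRB3 are the exceptions.

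Where a library had 2 peaks in such a member, the start fell in the upstream peak 34 times (12 members), in the downstream peak 9 times (4 members) and outside both 5 times (3 members). With the start in the upstream peak, the downstream peak held a median of 36.2% of the region's counts. EIF4A1 showed this order, with 26.8%, 27.0% and 24.8% of counts in the downstream peak in the 3 libraries with 2 peaks. SIN3A had 41.2%, 39.2% and 40.1%. At TEDC1 the downstream peak was the larger, with 71.1%, 66.9% and 66.0% in Carrier 31, Inflachromene 11 and Inflachromene 35. GALNT7 had 51.1%, 52.1% and 54.6% there in Carrier 12, Carrier 31 and Inflachromene 35. DLK2 ranged from 48.6% in Carrier 31 to 58.9% in Carrier 12. At EGR1 the start lay in the downstream peak, which held 71.9%, 71.4% and 71.9% in Carrier 31, Inflachromene 11 and Inflachromene 35.

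Levels are given in CPM, a region's counts relative to the library's total over consensus regions (counts per 1e6), scaled by TMM factors. A level is the sum over a library's own peaks in the region, so it grows with the length called. EGR1 was the highest member, at 186, 233, 236 and 197 CPM. SIN3A (chromosome 15, 75450443 to 75452454) had 184, 206, 219 and 180 CPM, and CRIP1 with TEDC1 (chromosome 14, 105489429 to 105491474) 166, 166, 169 and 166 CPM. EIF4A1 with SENP3 (chromosome 17, 7572174 to 7574275) followed with 117, 144, 146 and 125 CPM. CRIP2, a LIM domain protein gene (chromosome 14, 105480573 to 105482610), had 102, 98.7, 118 and 102 CPM, and MIDN 96.0, 103, 110 and 100 CPM. These 6 also had the highest density, the level per kb covered by own peaks. At all 6 the Carrier and Inflachromene libraries overlapped.

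At the other end, the region at PCNP stood at 5.39, 2.52, 2.20 and 4.76 CPM and that nearest to SPATA2 at 3.11, 5.54, 3.68 and 2.95 CPM. The lowest value of any library was 1.99 CPM, in Carrier 12 at MUC5AC, a gel-forming mucin gene, where Carrier 31 had 7.26 CPM. In Carrier 12 the called length there was 580 bp, and in Carrier 31 it was 1626 bp. Members at protein-coding starts had a median of 39.4 CPM (range 7.58 to 213, means over libraries), those inside protein-coding genes 10.2 CPM (4.62 to 55.1).

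**Figure D3:**
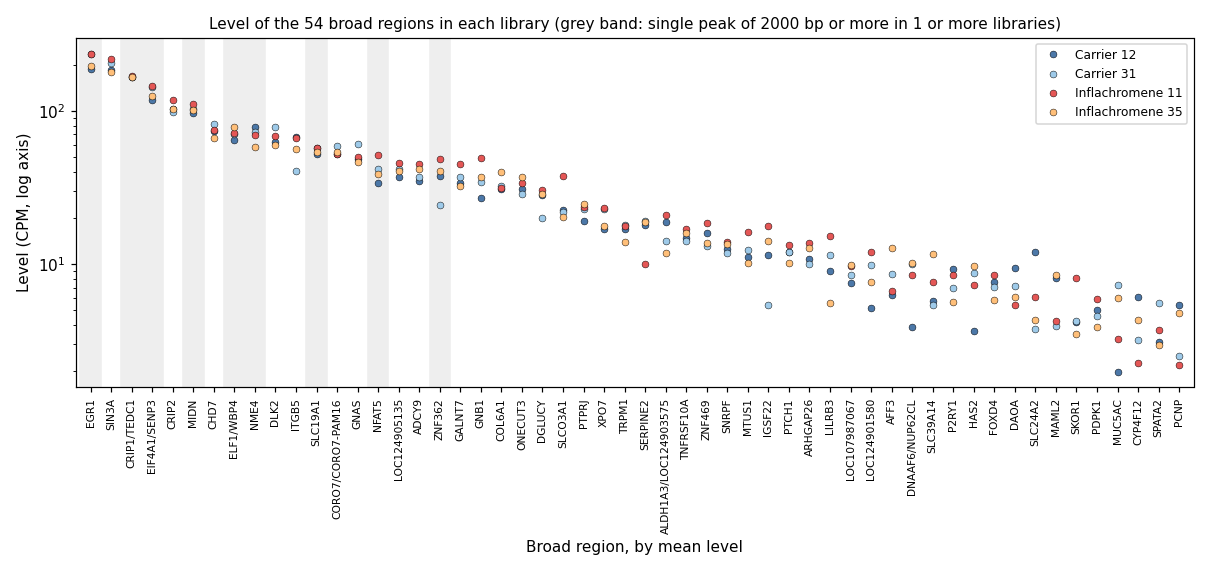
Points are levels in CPM (log axis) of the 54 broad regions in each library, ordered by mean level, with a grey band behind the 9 members that were a single peak of 2000 bp or more in at least 1 library. Levels run from 1.99 CPM (MUC5AC, Carrier 12) to 236 CPM (EGR1, Inflachromene 11), and all 9 grey bands lie in the upper part.

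Per kb covered by own peaks, the median broad region had 0.712, 0.752, 1.02 and 0.750 times the density of the median narrow region (0.808 ± 0.140, SD, n = 4). The 9 members with a single long peak stood apart from this: their median density was 35.6, 40.4, 41.2 and 38.4 CPM per kb, against 7.73, 7.90, 9.81 and 8.31 in the other 45. Relative to narrow regions the ratio for the 9 was 2.94, as a mean over libraries, and for MIDN 3.55. Peak calling and counts come from the same reads, so these ratios are a description. The 54 members made up 0.106% of consensus regions and took 0.202%, 0.207%, 0.220% and 0.200% of consensus-region counts. Their share of the base pairs covered was close to that: 0.199%, 0.193%, 0.191% and 0.199%.

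Across single nuclei, broad regions had counts in differing shares of barcodes; no doublet caller was run, and barcodes of more than 1 nucleus raise such shares. EGR1 had a count in 68.0%, 82.2%, 72.6% and 71.3% of deep barcodes, and SIN3A in 70.5%, 79.6%, 70.6% and 71.9%. The median member had a count in 11.5%, 20.8%, 13.1% and 12.5%, against 8.41%, 13.6%, 8.03% and 9.37% for narrow regions, which are shorter. Carrier 31 had the highest shares and also the deepest barcodes, with a median of 34064 counts per deep barcode against 16317 to 20123 in the others. A deep barcode had a count in a median of 11, 17, 12 and 12 of the 54 members. Members took a median of 0.196%, 0.205%, 0.213% and 0.194% of a deep barcode's consensus-region counts, with the middle 90% of barcodes between 0.101% and 0.312% in Carrier 12 and between 0.102% and 0.514% in Carrier 31.

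Levels were set beside the number of peaks called in a library. In the 38 members with 1 peak in some libraries and 2 in others, the mean level was higher in the libraries with 2 peaks in 30. All libraries with 2 peaks were above all with 1 in 23 members, and below in 5 (GALNT7, ELF1 with WBP4, SLCO3A1, NME4 and ZNF469). In the 22 members where 2 peaks covered at least 1.5 times as many base pairs, the level was a median 1.84 times as high but the density 0.850 times. In the 16 members where they covered fewer than that, the median level ratio was 1.03, with all libraries with 2 peaks higher in 4 and lower in 5. Among the 22 was the region nearest to HAS2, whose product makes hyaluronan: Carrier 12 had 1 peak covering 706 bp and 3.64 CPM, and the libraries with 2 peaks had 8.71, 7.28 and 9.70 CPM. There the density was 1.05 times as high with 2 peaks, against the direction of the median. Peak number and level were measured on the same reads, so this is a description.

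Inflachromene was compared with Carrier over all 50771 consensus regions in 1 fit, and the 54 rows were read from it. No member passed: edgeR's quasi-likelihood test called 0 of 54 at an adjusted p under 0.05, with adjusted p = 1.00 for every member, and 0 of all regions (0%). DESeq2 called 0 of the 49 members with an adjusted p, beside 28 of the 42896 consensus regions with one (0.0653%). At an unadjusted p under 0.05 edgeR had 4 members (7.41%), all higher under Inflachromene, against 4.48% of all regions in both directions, 3.04% higher and 1.44% lower. DESeq2 also had 4, against 3.27% of all regions. For 41 of 54 members the 95% interval was inside -1 to 1 on the log2 scale, and for the other 13 it reached beyond.

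Those 4 were IGSF22, SLC39A14, ZNF362 and GNB1. IGSF22, an immunoglobulin superfamily gene (chromosome 11, 18720174 to 18722626), had 11.5 and 5.39 CPM under Carrier and 17.6 and 14.1 CPM under Inflachromene. On the log2 scale the fold change was 0.91 with a standard error of 0.32 and a 95% interval from 0.19 to 1.62 (unadjusted p = 0.0183 in edgeR). Carrier 31, the lowest, had 1 peak of 848 bp where the other libraries had 2 peaks covering 1485 to 1539 bp. SLC39A14, a zinc and iron transporter gene (chromosome 8, 22392157 to 22394192), had 5.69 and 5.43 CPM against 7.66 and 11.6 CPM, a log2 fold change of 0.80 (0.26, interval 0.21 to 1.38). Both Inflachromene libraries lay above both Carrier libraries at each of these regions, and Carrier 31 again had 1 peak at SLC39A14 where the others had 2. The IGSF22 value was 1.56 without Carrier 12 and 0.47 without Carrier 31, and that of SLC39A14 was 0.45 without Inflachromene 35. With an offset for the base pairs covered by own peaks, IGSF22 stood at 0.57 and SLC39A14 at 0.26. This offset assumes that counts grow in proportion to called length. Density was a median 0.850 times where 2 peaks covered at least 1.5 times as many base pairs, so that did not hold in all members.

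ZNF362, a zinc finger gene (chromosome 1, 33255156 to 33257371), had 37.2 and 24.3 CPM under Carrier and 48.3 and 40.6 CPM under Inflachromene, a log2 fold change of 0.53 (standard error 0.21). Its called length was 1049 bp in Carrier 31, the lowest library, and 2070 to 2196 bp in the others. The offset for covered base pairs gave 0.03, and the value was 0.87 without Carrier 12 and 0.26 without Carrier 31. GNB1, a G protein beta subunit gene (chromosome 1, 1889659 to 1891683), had 27.0 and 34.2 CPM against 49.2 and 36.9 CPM, a log2 fold change of 0.49 (0.19). There the peaks covered 891 and 938 bp under Carrier and 1841 and 1443 bp under Inflachromene. With the same offset the GNB1 log2 fold change was -0.35. It was 0.28 without shared barcodes, 0.27 without Inflachromene 11, and 0.34 without Carrier 12.

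Groups did not overlap, with Inflachromene higher, in 13 members (24.1%), against 14.0% of all consensus regions. In 10 of these 13, and in 25 of all 54 members, own peaks covered more base pairs under Inflachromene. Among the 10 the ratio of covered length was near 1 at ADCY9 (1.01), PTPRJ (1.04), ELF1 with WBP4 (1.06) and ARHGAP26 (1.09). It was largest at GNB1 (1.80). ARHGAP26 had 10.8 and 10.0 CPM against 13.8 and 12.8 CPM (log2 fold change 0.35, standard error 0.20). ADCY9 had 34.9 and 37.1 CPM against 44.6 and 41.7 CPM (0.26, 0.15), and the region 5151 bp from ONECUT3, a homeobox factor gene, 30.6 and 28.7 CPM against 33.5 and 37.1 CPM (0.25, 0.15). Without shared barcodes the ADCY9 value was 0.11, without Inflachromene 35 that near ONECUT3 was 0.17, and with the offset for covered base pairs that of ARHGAP26 was 0.22. At these 3, unlike most members, every library had 2 peaks, and called lengths ranged from 1596 to 1987 bp. DGLUCY had 28.1 and 20.0 CPM against 30.3 and 28.7 CPM (0.29, 0.19), and with the offset for covered base pairs its log2 fold change was -0.14. It was 0.57 without Carrier 12 and 0.07 without Carrier 31.

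Inflachromene was lower without overlap in 2 members (3.70%; 17.5% of all regions), and both directions together came to 15 (27.8%; 31.5% of all regions). NME4 had 77.8 and 73.1 CPM under Carrier and 69.1 and 58.1 CPM under Inflachromene (log2 fold change -0.25, standard error 0.15). It stood at -0.38 without Inflachromene 11, -0.14 without Inflachromene 35 and -0.10 with the offset for covered base pairs. A region on chromosome 13, 282862 bp from DAOA, had 9.40 and 7.18 CPM against 5.37 and 6.06 CPM (-0.54, 0.25). It was covered by 1678 and 1554 bp of peaks under Carrier and 1222 and 796 bp under Inflachromene, and the offset for covered base pairs gave 0.23. Its value was -0.32 without Carrier 12 and -0.78 without shared barcodes. The lowest log2 fold change, -0.62, was at SLC24A2, where Carrier 12 had 12 CPM and the other libraries 3.75 to 6.05 CPM, so the groups overlapped.

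**Figure D4:**
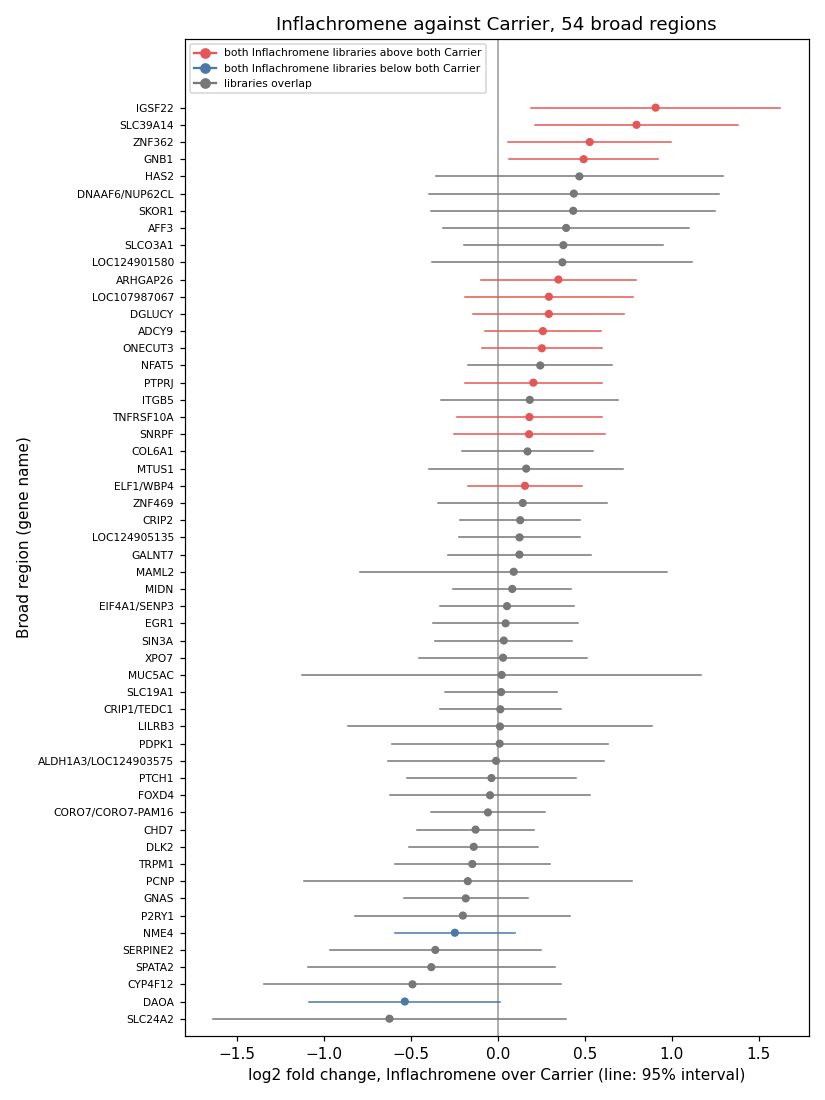
Points are log2 fold changes of Inflachromene over Carrier (n = 2 libraries each) and lines their 95% intervals, with colour showing whether the libraries of the groups overlap. IGSF22 is highest at 0.91 and SLC24A2 lowest at -0.62; 13 members are red and 2 blue, and none passed the adjusted test.

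As a group, 38 of 54 members had a log2 fold change above 0, beside 26270 of 50771 consensus regions and 20964 of 40934 narrow regions. The median was 0.11, beside 0.01 over all consensus regions and 0.01 over narrow regions. Without Inflachromene 11, 27 of 54 were above 0 and the median was 0.00. Without shared barcodes 35 were above 0 and the median was 0.06. Called length moved with these values, in part by construction, because a level sums the counts over a library's own peaks. How far called length accounts for the median was not tested. In the 25 members whose ratio of covered length between the groups lay outside 0.9 to 1.1, the fold change had the sign of that difference in 22. In the 29 with alike coverage the median was 0.03 and 20 were above 0. With the offset for covered base pairs the median over the 54 was 0.09.

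**Figure D5:**
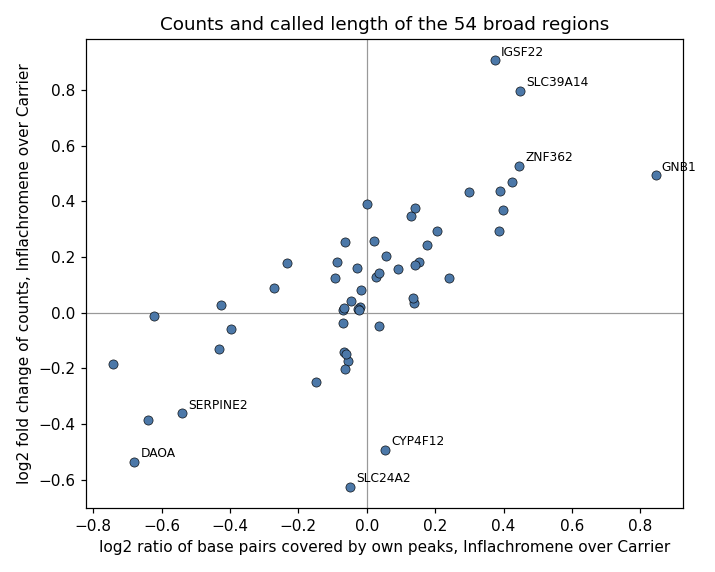
Each point is 1 of the 54 broad regions, placed by the log2 ratio of base pairs covered by own peaks (x) and the log2 fold change of counts (y), both Inflachromene over Carrier. GNB1, with 1.80 times the covered length, and DAOA, with 0.624 times, lie at opposite corners; SLC24A2 is low at a ratio near 1.

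The share of consensus-region counts in broad regions averaged 0.205% ± 0.00365 in the Carrier libraries and 0.210% ± 0.0142 in the Inflachromene libraries (SD, n = 2 per group). The difference of 0.00511 percentage points was smaller than the spread between the Inflachromene libraries (two-sided exact permutation p = 1.0, where the smallest p that 2 against 2 can give is 0.333). Without shared barcodes it was -0.000306 points, with shares of 0.207% and 0.214% under Carrier and 0.220% and 0.200% under Inflachromene. The 9 members with a single long peak had a median log2 fold change of 0.05, from -0.25 (NME4) to 0.53 (ZNF362).

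Some calls appeared when 1 library was left out, where the lone library of its group is assumed to vary like the other group. Without Inflachromene 11, edgeR called 5 members (6.26% of all regions were called there): SLC39A14 (log2 fold change 1.06), AFF3 (0.78) and IGSF22 (0.74) higher, and SLC24A2 (-0.89) and LILRB3 (-0.88) lower. Without Inflachromene 35 it called IGSF22 (1.05) and SLCO3A1 (0.74) as higher and SERPINE2 (-0.90) as lower, where 0.589% of all regions were called. SERPINE2, the protease nexin gene, had 18.0, 19.1, 10.0 and 18.7 CPM, and SLCO3A1, an organic anion transporter gene, 22.5, 21.8, 37.3 and 20.4 CPM, so at both Inflachromene 11 was the library that differed. At SERPINE2 it had 1 peak of 819 bp where the others had 2. Leaving out Carrier 12 or Carrier 31 called 0 members (0% and 0.00985% of all regions).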

How the data were processed

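Single-nucleus ATAC libraries of Panc1 cells from 4 transplanted mice were analysed. GRCh38, Cell Ranger ARC and Cell Ranger ATAC 2.1.0 appear in the submitters' processing notes, without settings. The authors deposited, per library, a list of peaks and raw whole-number counts for each peak in each barcode; 82.4% to 84.9% of the entries are even, so 2 counts are often 1 fragment. Peaks were called per library, and replicates were not pooled.

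Counts were summed over all barcodes of a library and over its own peaks in each merged region. Differences were tested with edgeR 4.0.16 (TMM, filterByExpr, which removed no region, quasi-likelihood F test, Benjamini-Hochberg adjustment over all 50771 regions, threshold 0.05). The code was checked on simulated counts with the same spread set for every region and no differences in called length. That check does not show the power of the test on these libraries. DESeq2 1.42.0 was an alternative. The share of counts was compared with exact permutation tests (scipy 1.17.1). The p-values set group differences against the spread between these mice. In edgeR and DESeq2 that spread is estimated in part from all regions together. Gene positions and promoter windows come from RefSeq tables for GRCh38.p14, where 15812 of 19974 protein-coding genes, and none on chromosome 8, have a listed start; a region is named by the gene whose outer end lies within 1000 bp, else the gene around it, else the nearest. Named regions are the 12 widest, the 6 of highest density, members of gene lists, up to 8 non-overlapping in each direction by unadjusted p and 3 on each side of the limit; others were named after their values were seen. Members and lists were chosen with earlier results of these data known. Alternatives were width limits, overlap, distance to genes, barcode sets, scaling, a 10 Mb window offset and each library left out; the covered-length offset and removal of shared barcodes were added after seeing the data.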

Additional observations from a re-analysis of the deposited data

How the results depend on the processing

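The number of broad regions depended on the rule: 450 at 1500 bp or more, 0 at 3000 bp or more (so no further value could be computed there), 26 when peaks had to overlap by at least 100 bp, 9 with a single peak of 2000 bp or more in 1 or more libraries and 1 with such a peak in every library. The share of members at a gene start or end was 88.9% for these 9 and 100% for the last, and their density ratios to narrow regions were 2.94 and 3.55. The difference in the share of counts was 0.0240 percentage points at 1500 bp or more. Without a library it ran from -0.00493 to 0.0151 points. Members called by edgeR ran from 0 to 5 over the libraries left out (5 without Inflachromene 11, 3 without Inflachromene 35) and were 0 in every other setting run. The median log2 fold change ran from 0.00450 (without Inflachromene 11) to 0.181 (without Inflachromene 35). For the 10 regions named by the group comparison, 114 of 120 checks kept direction and side of the threshold; IGSF22 passed in 2 and SLC39A14 in 1, and the offset for covered base pairs, added after seeing the data, reversed GNB1 (-0.35), DGLUCY (-0.14) and DAOA (0.23). No paired analysis was possible because the groups share no replicate numbers. The offset assumes counts in proportion to called length, which did not hold in all members, so its reversals do not settle a direction. With 2 libraries per group and peaks called per library, differences in called length limit what levels can show.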

Other observations

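Another 12 merged regions of 2000 bp or more lacked a peak in at least 1 library and were therefore outside the 54. Of these, 10 had peaks in 3 libraries and 2 in 2 libraries. At an outer end of a gene lay IL20, an interleukin gene (2079 bp, no peak in Inflachromene 35), PALM2AKAP2 (2070 bp, none in Inflachromene 11), N4BP2L1 (2003 bp, none in Carrier 12), NGB, which encodes neuroglobin (2000 bp, none in Carrier 31), CAVIN1, a coat protein gene of caveolae (2017 bp, none in Inflachromene 35), and DENND6B with PLXNB2 (2067 bp, peaks in Carrier 12 and Inflachromene 11 only). Inside genes lay ATG7, an autophagy enzyme gene (2004 bp), ARHGAP24 (2089 bp), CNNM2 (2031 bp) and EOLA1 (2069 bp). The remaining pair lay 46039 bp from MINDY4B (2063 bp) and 58044 bp from INSIG1 (2003 bp). A missing peak is not a count of 0, so these regions have no tested difference.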
